A study of Ovis aries with 5 samples.

Results

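Gene expression was set side by side in CD26+ and CD26- dendritic cells that had left the skin of sheep through the lymph. The material was total RNA of cells sorted as CD1b+CD26+ or CD1b+CD26- from 2 sheep, numbered 30066 and 10081, so that each subset was measured on 2 arrays and each animal gave both subsets. These are 4 of the 5 arrays of the study. The fifth carried the reference in both dyes. On the 4 arrays used here Cy3 marked the sorted cells and Cy5 a common reference, named in the sample labels as total enriched lymph dendritic cells of other sheep and in the labelling protocol as RNA of a cultured cell line. A value is the log2 ratio of the sorted cells over that reference, and a difference is the CD26+ value minus the CD26- value of the same sheep, in which the reference cancels. No treatment, age or sex of the animals is stated in the labels. The table held 705 named genes and 207 described probes without a gene symbol that were bright enough to be tested, of 13252 such probes on an array of 15008.

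Dendritic cells take up antigen in tissues, migrate through the lymph and show peptides on MHC molecules to T cells. MHC class II molecules, pairs of an alpha and a beta chain, serve helper T cells, and class I molecules, a heavy chain with beta-2 microglobulin, serve cytotoxic T cells. Conventional dendritic cells are commonly divided into type 1 cells, known for cross-presentation to cytotoxic T cells and for interleukin 12, and type 2 cells, which carry several lectins and Fc receptors of the myeloid lineage. CD26, or dipeptidyl peptidase 4, is a protease of the cell surface that cuts chemokines among other peptides, and CD1b presents lipid antigens.

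The subset arrays were alike in quality. Between 80.8% and 88.7% of probes were well above background in Cy3, and the median Cy3 signal lay between 215 and 307 units. Probes spotted 5 times on an array varied with a median SD of 0.078 to 0.098 in log2 units, a spread between spots only. Over the 694 named genes with a difference in both sheep, the median gap between the differences of the 2 sheep was 0.41. No subset of an animal had a repeat array, so variation between animals and between arrays cannot be told apart. Of the sort markers, CD1B was measured, at -0.80 and 0.30 in CD26- cells and at -0.99 and -0.13 in CD26+ cells (sheep 30066 and 10081), so both subsets overlapped. The gene of CD26, DPP4, was not analysed here, and the values are no check of the sort for it. Of 14 defining genes of dendritic cells, 4 were measured (CD40, CD80, CD86 and DRA). All 4 were well above background on each subset array.

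With the sheep as a block, limma gave none of 12938 probes an adjusted p under 0.05, 0% of them (0 probes; smallest adjusted p = 0.567). At an unadjusted p under 0.05 it found 1105 probes, 519 higher and 586 lower in CD26+ cells. With 2 animals the fit had 1 residual degree of freedom. An exact permutation test of 2 values against 2, which ignores the pairing, cannot give a two-sided p below 0.333. One that keeps the pairing has fewer arrangements, so its smallest p is larger still. The sizes that follow are therefore descriptions of these arrays. Beside them stands the moderated standard error (SE) of limma over n = 2 sheep. Moderation draws the variance of each probe towards a value shared by all probes. The SE is thus not the spread between the 2 sheep alone: YBX1, with a difference of 0.93 in both, had an SE of 0.29. A probe was counted as distinct when both animals gave a difference of at least 2-fold to the same side. That held for 313 probes higher in CD26+ cells (2.42% of 12938) and 386 lower (2.98%), and for 267 the animals were each 2-fold or more to opposite sides (2.06%). Among the named genes, each represented by its brightest probe, 19 were higher (2.74% of 694), 26 lower (3.75%) and 9 opposite (1.3%). The named genes thus had about the same shares as all probes. The set depends on how the array background was modelled. In the values given here the model leaves out the few spots beside bright specks. When it was fitted on all spots, 381 probes were higher, 237 lower and 108 opposite, so that 61.7% rather than 44.8% of those in the same direction were higher. Median centring in place of loess gave 34.5%. The 388 probes found in the same direction under both background models are 55.5% of the first set and 62.8% of the second. Where that choice moved a gene named below by more than 1.5 times, the other mean difference is given beside it. The factor applies to the unlogged fold on the gene's brightest probe, and smaller moves are not shown. SMAD4, for example, went from -0.90 to -0.33 without passing it.

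**Figure D1:**
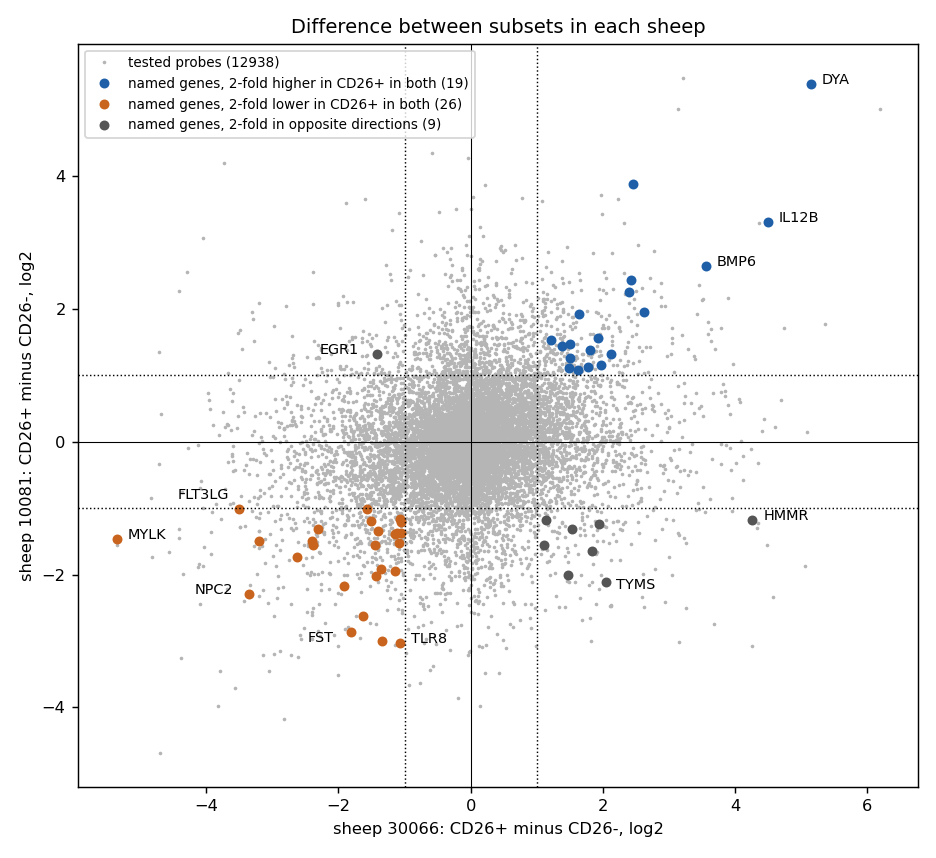
Difference between CD26+ and CD26- cells in sheep 30066 (x axis, log2) against that in sheep 10081 (y axis, log2), 1 grey point per tested probe, with the named genes at least 2-fold apart in both animals in colour and the 2-fold limits as dotted lines. DYA and IL12B lie far out in the upper right, MYLK and NPC2 in the lower left, and most of the 12938 probes lie near the centre.

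The animals resembled each other more for bright probes than for dim ones. Over the whole array, r between the animals was 0.21, a description across probes of 4 arrays on 1 slide. Split into equal parts by mean intensity, r was 0.07 for the dimmest 4313 probes, 0.19 for the middle 4312 and 0.37 for the brightest 4313. The dimmest part held 57 probes higher and 60 lower in both animals against 80 in opposite directions. In the brightest part 113 were higher and 147 lower against 42 in opposite directions. Sheep 30066 had the larger differences, with 25.7% of probes at least 2-fold apart (SD of the differences 1.05), and sheep 10081 had 18% (SD 0.83).

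Each probe is a stretch of 60 bases, and many genes carry 2 of them. The sequences below are those of some of the genes described further on. They are copied from the deposited array files, 5′ to 3′. Where both probes of a gene overlap, capitals mark the bases they share, and such probes are near-repeats of 1 measurement rather than separate evidence. Both IL12B probes share 30 bases and those of BMP6 share 59, whereas no stretch is marked for IL1A and for the class II chains DRB1 and DQA2. No genome was used, so no positions are given.
IL12B, probe A_70_P039626: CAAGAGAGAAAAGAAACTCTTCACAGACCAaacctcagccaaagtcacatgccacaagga
IL12B, probe A_70_P039627: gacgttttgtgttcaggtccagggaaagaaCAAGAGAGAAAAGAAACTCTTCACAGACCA
BMP6, probe A_70_P026587: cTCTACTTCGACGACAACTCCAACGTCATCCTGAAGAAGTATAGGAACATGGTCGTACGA
BMP6, probe A_70_P026586: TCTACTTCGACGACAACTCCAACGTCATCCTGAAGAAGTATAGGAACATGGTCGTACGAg
BCL2L1, probe A_70_P012561: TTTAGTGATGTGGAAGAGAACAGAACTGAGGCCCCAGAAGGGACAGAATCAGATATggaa
BCL2L1, probe A_70_P012562: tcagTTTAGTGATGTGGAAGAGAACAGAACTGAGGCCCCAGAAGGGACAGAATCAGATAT
IL1A, probe A_70_P051176: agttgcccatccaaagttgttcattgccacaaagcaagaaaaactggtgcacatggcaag
IL1A, probe A_70_P051177: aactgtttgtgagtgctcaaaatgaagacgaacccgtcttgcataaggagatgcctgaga
DRB1, probe A_70_P024146: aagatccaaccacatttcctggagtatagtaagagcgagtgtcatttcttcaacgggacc
DRB1, probe A_70_P024151: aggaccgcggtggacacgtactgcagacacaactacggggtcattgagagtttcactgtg
DQA2, probe A_70_P026541: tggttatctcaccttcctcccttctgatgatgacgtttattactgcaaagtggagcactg
MYLK, probe A_70_P016046: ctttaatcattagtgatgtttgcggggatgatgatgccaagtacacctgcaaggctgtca

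The measured chains of MHC class II were higher in CD26+ cells in both animals. The most distant named gene was DYA, the alpha chain of DY, a class II molecule of ruminants. It stood at -3.48 and -1.63 in CD26- cells and at 1.67 and 3.76 in CD26+ cells (sheep 30066 and 10081), a difference of 5.27 (SE 0.30; 3.67 with all spots in the background model). Both CD26+ values lay above both CD26- values, and the DYA probe exceeded background clearly on 1 of the 2 CD26- arrays. In a bulk sample, a change in the number of cells that express a gene and a change in RNA per cell cannot be told apart. The differences in sheep 30066 and 10081 were 2.12 and 1.32 for the class II alpha chain DQA1, 1.97 and 1.16 for DQA2, 1.50 and 1.47 for DRA, which pairs with the DRB chains, and 1.50 and 1.26 for the beta chain DRB3. Of these, DQA1 had the largest gap in level between the animals: its CD26- and CD26+ values were -0.24 and 1.87 in sheep 30066 and -3.61 and -2.28 in sheep 10081. The groups overlapped for it, although each animal's CD26+ value was the higher. DRA did not overlap, with -1.01 and -1.25 in CD26- cells and 0.49 and 0.22 in CD26+ cells.

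The 3 probes of DRB1, a polymorphic beta chain, did not agree on which animal had the higher level. The probe A_70_P024146 printed above stood at 0.37 and 1.27 in sheep 30066 (CD26- and CD26+) and at 1.67 and 2.81 in sheep 10081. For A_70_P024151 the values were 0.60 and 1.42 in sheep 30066 and 0.07 and 0.82 in sheep 10081. The first probe thus stood higher in sheep 10081 and the second in sheep 30066, while the difference between subsets was positive for both, at 1.02 (SE 0.30) and 0.79 (SE 0.30). The third probe gave 1.31 (SE 0.30). Of the 10 measured genes of the class II presentation list with both differences, of 35 listed, 8 were higher in both animals and 0 lower, against 28.1% and 28.2% of all named genes. Their median difference was 1.21, against 0.008 over all named genes. The members near 0 were the lysosomal proteases CTSB at 0.18 (SE 0.32), CTSD at 0.14 (SE 0.30) and LGMN at -0.10 (SE 0.31), which trim antigens.

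MHC class I heavy chains were measured by 12 described probes, none named by symbol. In both animals all 12 were higher in the CD26+ cells, against 27.6% of all probes. The differences were small, from 0.10 to 0.90 in sheep 30066 (median 0.60) and from 0.26 to 0.91 in sheep 10081 (median 0.64). In CD26- cells the values had a median of -0.10 and 0.68, and in CD26+ cells of 0.45 and 1.56, so the level was higher in sheep 10081 in both subsets. Of the 66 pairs of these probes, 3 shared a run of at least 30 bases. Class I genes are closely related copies, and their probes may bind the same transcripts, so the 12 are not separate measurements. B2M, the light chain of class I, stood at -0.95 and -2.06 in CD26- cells and at -0.23 and -1.09 in CD26+ cells, a difference of 0.85 (SE 0.30). PSME2, a subunit of a proteasome activator and the other measured gene of the class I presentation list, was lower by 0.55 in sheep 30066 and higher by 0.46 in sheep 10081. CD86, a costimulatory ligand of T cells, was higher by 0.90 and 1.32, CD80 by 0.65 and 0.42 and CD40, the receptor of helper signals from T cells, by 0.32 and 0.61. The gene listed as CD1, of the family that presents lipids, went from -0.18 and 0.03 to 1.46 and 1.95 (difference 1.78, SE 0.30), and its other probe gave 1.92. CD1D was lower, by 2.06 in sheep 30066 and by 0.30 in sheep 10081, but its mean difference of -1.18 turned to 0.10 with all spots in the background model.

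**Figure D2:**
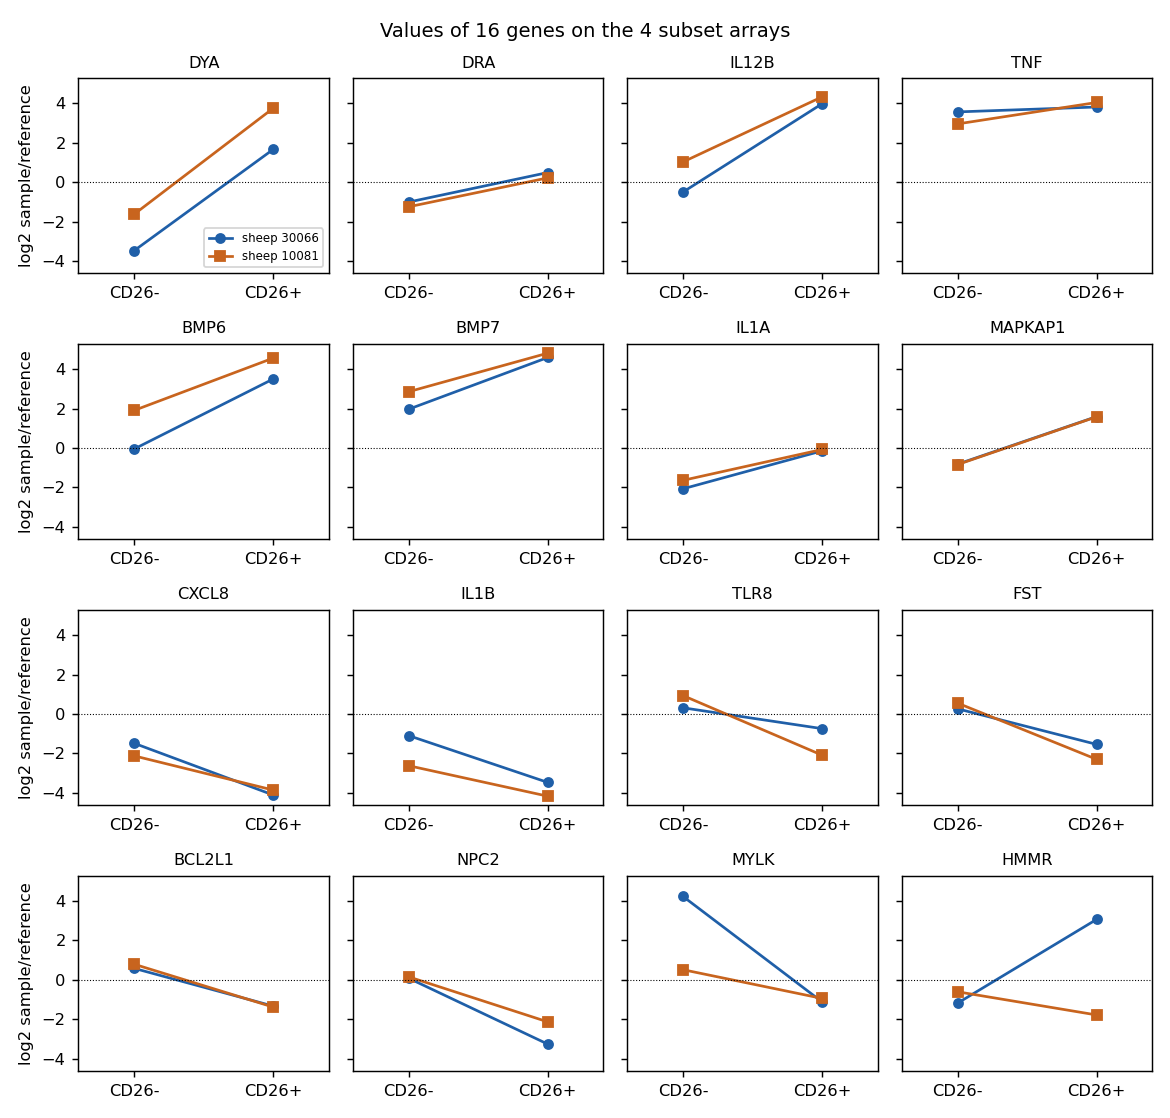
Log2 ratio of sorted cells over reference (y axis) for 16 genes on the 4 subset arrays, with a line joining the CD26- and CD26+ array of each sheep. IL12B goes from -0.50 and 1.03 to 3.99 and 4.34, the lines of MAPKAP1 coincide, and those of HMMR cross.

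The largest differences among cytokine genes lay on both sides. IL12B, the p40 chain shared by interleukin 12 and interleukin 23, stood at -0.50 and 1.03 in CD26- cells and at 3.99 and 4.34 in CD26+ cells. The groups lay apart, with a difference of 3.90 (SE 0.44) for this probe and 3.82 (SE 0.42) for the overlapping one. IL12A, the p35 partner in interleukin 12, had a difference of -0.06 (SE 0.30; -0.72 with all spots in the background model). The interleukin 1 family was split: IL1A went from -2.07 and -1.64 in CD26- cells to -0.14 and -0.07 in CD26+ cells, whereas IL1B went from -1.10 and -2.63 to -3.48 and -4.18. The groups did not overlap for either gene. IL1RN, the natural blocker of the interleukin 1 receptor, was on the side of IL1B, at 1.71 and 2.62 in CD26- cells and at 0.28 and 0.60 in CD26+ cells. IL1A was higher by 1.75 (SE 0.31; 1.03 with all spots in the background model), and its second probe, which shares no stretch of bases marked above, gave 1.68 (SE 0.32). FLT3LG, the ligand of the growth factor receptor FLT3 of dendritic cells, was lower in CD26+ cells by 3.51 in sheep 30066 and by 1.02 in sheep 10081.

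The cytokine TNF was measured by a pair of probes that differed. The brighter one stood at 3.57 and 2.96 in CD26- cells and at 3.82 and 4.05 in CD26+ cells, a difference of 0.67 (SE 0.38; 1.92 with all spots in the background model). The other stood at 0.50 and 0.50 and at 2.52 and 3.06, a difference of 2.29 (SE 0.33). Both point the same way, and their sizes are 1.62 apart on the log2 scale. Of the 21 measured cytokine genes 6 were higher in both sheep and 7 lower, close to the shares over all named genes, with a median of -0.06. Among them the difference was -0.20 for IL6 (SE 0.61), 0.02 for IL10 (SE 0.40) and -0.13 for IL15 (SE 0.32). With all spots in the background model it was -1.03 for IL6 and -1.15 for IL10.

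CXCL8, a chemokine that attracts neutrophils, stood at -1.49 and -2.13 in CD26- cells and at -4.12 and -3.87 in CD26+ cells, with a difference of -2.18 (SE 0.38), and CXCL1, of the same group, was lower by 1.56 and 0.50. Its mean difference of -1.03 was 0.09 in the fit without pairing that left out the CD26- array of sheep 30066. A regakine 1-like chemokine, known from its description only, was lower by 1.07 and 0.67. CXCL10, an interferon-induced attractant of activated T cells, was higher by 2.12 and 0.93, and CXCR4, a receptor used in migration, by 1.69 and 0.47. Of 9 measured chemokines and receptors 2 were higher in both animals and 6 lower, against 28.1% and 28.2% of all named genes. Their median difference was -0.13, and 1 was at least 2-fold lower in both. The 5 measured interferon-stimulated genes had a median of 0.89, but 0.15 in sheep 30066 and 0.95 in sheep 10081. MX2 stood at 1.37 and 1.51 in sheep 30066 (CD26- and CD26+) and at -1.28 and 1.40 in sheep 10081, so that a single array, CD26- of sheep 10081, was low. ISG15 was low on that array too (-1.75, against -0.03, -0.19 and 0.18). IRF1, a transcription factor of the interferon response, was higher by 0.92 and 0.86.

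Genes of the BMP and TGF-beta families, secreted growth factors with their receptors and inhibitors, held some of the largest differences in both directions. BMP6 stood at -0.05 and 1.91 in CD26- cells and at 3.51 and 4.57 in CD26+ cells (difference 3.11, SE 0.39). BMP7 stood at 1.97 and 2.86 and at 4.60 and 4.82 (2.29, SE 0.35; 3.74 with all spots in the background model), with no overlap for either ligand. BMP4, another ligand, was on the other side, at 0.52 and 0.73 in CD26- cells and at -0.63 and -0.66 in CD26+ cells. Its difference of -1.27 became -0.68 with all spots in the background model. FST, or follistatin, which binds activins and BMPs, stood at 0.26 and 0.55 in CD26- cells. It was not well above background on either CD26+ array, with measured values of -1.55 and -2.31. CD26- cells exceeded CD26+ cells by at least 4.44-fold under the background model used here. This bound sets the mean Cy3 signal of the bright group against the dimmest signal still well above background, or the probe's own where that is higher. It holds for that model only. With all spots in the background model the measured difference of FST went from -2.34 to -1.64, a smaller fold than the bound.

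Several receptors of this pathway stood lower in CD26+ cells. TGFBR2, the type II receptor of TGF-beta, was lower by 1.34 and 3.0. Its second probe was not well above background on either CD26+ array and gave a measured difference of -2.60 (SE 0.35). The activin receptors ACVR2A and ACVR2B were lower in both animals but not by the same amounts, by 0.39 and 2.37 for the first and by 1.90 and 0.66 for the second. SMAD4, the common mediator of the pathway, was lower by 1.35 and 0.46, whereas SMAD1, a mediator of BMP signals, was higher by 0.35 and 0.76. In all, 26 of 51 listed genes were measured, of which 5 were higher in both animals and 13 lower, against 28.1% and 28.2% of all named genes. The median was -0.17.

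Several receptors of the myeloid lineage stood lower in CD26+ cells. TLR8, a sensor of single-stranded RNA, stood at 0.31 and 0.93 in CD26- cells and at -0.75 and -2.10 in CD26+ cells (difference -2.05, SE 0.62). FCER1A, the IgE receptor chain carried by type 2 dendritic cells, stood at -1.66 and -1.37 in CD26- cells. In CD26+ cells it stood at -3.01 and -3.29, and the groups lay apart. CLEC4E, which binds mycobacterial glycolipid, was lower by 2.31 and 1.31, and CLEC6A, a lectin for fungal sugars, by 1.05 and 1.21. The beta-glucan receptor CLEC7A went the other way, higher by 0.97 and 0.74, as did the flagellin receptor TLR5 by 1.59 and 0.38. CD14, a coreceptor of lipopolysaccharide, was lower by 0.32 and 1.87. Of the 7 measured cDC2 markers 3 were higher in both animals and 4 lower, against 28.1% and 28.2% of all named genes. The 4 lower ones (FCER1A, CLEC6A, TLR8 and IL1B) were each at least 2-fold lower in both, and the median was -1.13. For type 1 cells 2 of 14 listed markers were measured. They were IL12B, higher, and TLR3, a sensor of double-stranded RNA, which was lower by 0.37 and 1.80.

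Of the 10 measured genes of apoptosis and survival 2 were higher in both animals and 5 lower, against 28.1% and 28.2% of all named genes. The median was -0.23, with -0.02 in sheep 30066 and -0.17 in sheep 10081. At least 2-fold apart in both were 2 on the higher side and 1 on the lower. FAS, a death receptor, was higher by 1.38 and 1.44 on its brightest probe, while its other probes gave mean differences of 0.61 (SE 0.47) and 0.18 (SE 0.30). BCL2L1, which blocks apoptosis, stood at 0.58 and 0.79 in CD26- cells and at -1.34 and -1.39 in CD26+ cells. The values within a subset were close to each other and the groups lay apart, with a difference of -2.04 (SE 0.30), or -1.43 with all spots in the background model. MAPKAP1, a subunit of mTOR complex 2, had nearly the same values in both animals, at -0.82 and -0.84 in CD26- cells and at 1.60 and 1.59 in CD26+ cells (difference 2.43, or 1.85 with all spots in the background model). ADORA3, a receptor for adenosine, stood at 0.06 and -0.03 in CD26- cells and at 2.45 and 2.22 in CD26+ cells.

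**Figure D3:**
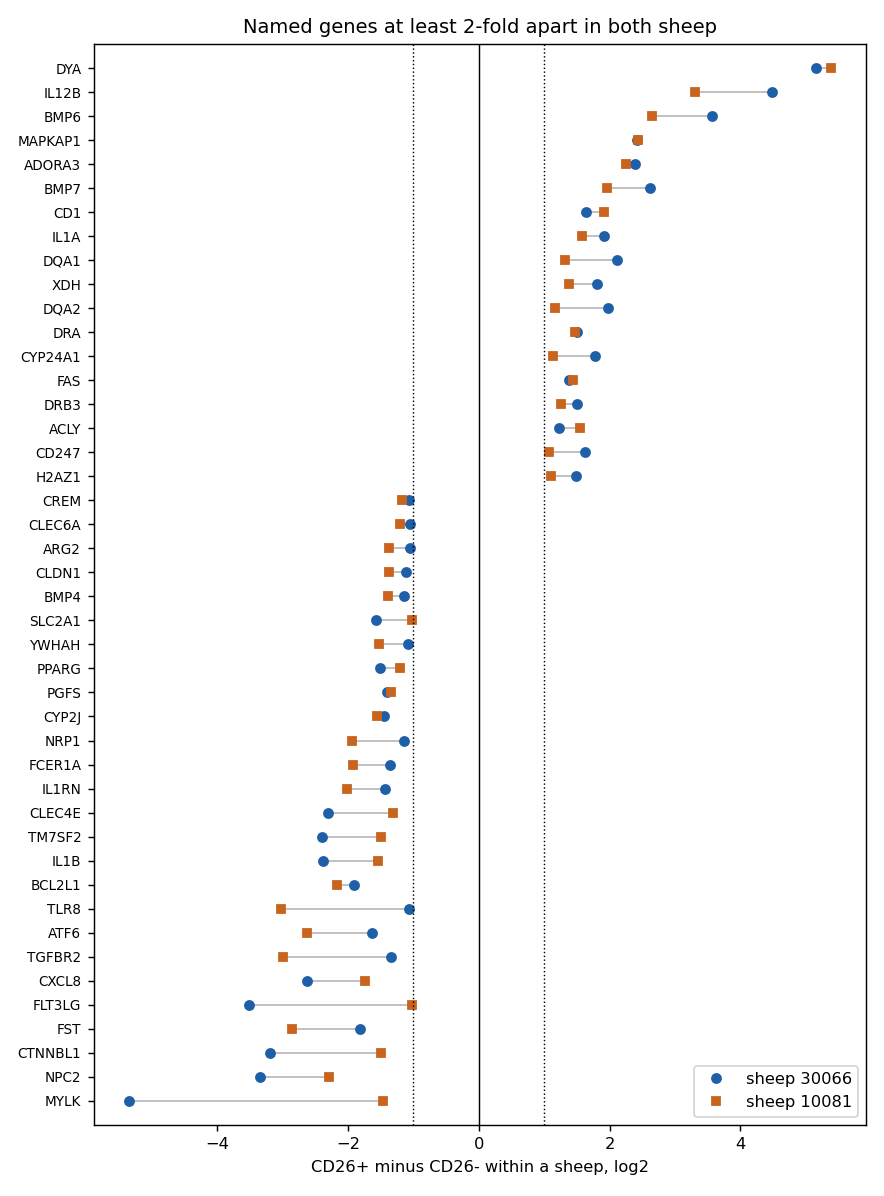
Difference between CD26+ and CD26- cells (x axis, log2) in each sheep for 44 of the 45 named genes that were 2-fold or more to the same side in both, ordered by the mean, with dotted lines at 2-fold. The 2 animals lie close together for DYA, MAPKAP1, ADORA3, DRA and BCL2L1 and far apart for MYLK, FLT3LG and TLR8.

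Among the remaining genes higher in CD26+ cells in both animals, XDH, which makes urate and oxygen radicals, went from -0.87 and -0.75 to 0.94 and 0.62 (difference 1.59, or 0.79 with all spots in the background model). ACLY, which supplies acetyl-CoA for lipid synthesis, went from -1.06 and -0.38 to 0.16 and 1.16. CYP24A1, which breaks down active vitamin D, was higher by 1.77 and 1.13, and the histone variant H2AZ1 by 1.49 and 1.11. CD247, a signalling chain of the T cell receptor, was higher by 1.63 and 1.08. For XDH and ACLY all CD26+ values exceeded all CD26- values.

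Genes lower in CD26+ cells included several of metabolism. NPC2, a carrier of cholesterol out of lysosomes, stood at 0.08 and 0.15 in CD26- cells and at -3.27 and -2.14 in CD26+ cells (difference -2.82, SE 0.42). TM7SF2, an enzyme of sterol synthesis, was lower by 2.40 and 1.50 (mean -1.95, or -1.29 with all spots in the background model), and PPARG, a nuclear receptor for lipids, by 1.51 and 1.20. The glucose transporter SLC2A1 was lower by 1.57 and 1.02 and the arginase ARG2 by 1.05 and 1.37. PGFS, a prostaglandin F synthase, was not well above background in CD26+ cells. CD26- cells exceeded these by at least 2.36-fold, a bound that holds only for the background model used here. The measured difference of PGFS was -1.37. With all spots in the background model it was -0.60, a smaller fold than that bound. As groups, the 19 measured genes of lipid and sterol handling had a median of 0.03, with 3 higher and 7 lower in both animals. The 17 of glycolysis and sugar transport had a median of 0.07, with 5 higher and 5 lower. Of all named genes 28.1% were higher and 28.2% lower.

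The largest difference on the lower side among named genes was that of MYLK, the myosin light chain kinase, and it rested mainly on 1 array. The CD26- array of sheep 30066 stood at 4.23, while the CD26- array of sheep 10081 stood at 0.51. The CD26+ arrays stood at -1.13 and -0.95 (difference -3.41, SE 1.12; -1.96 with all spots in the background model). A described probe for a myosin light chain kinase transcript, A_70_P057151, stood at 4.93 and 0.67 in CD26- cells and at 0.09 and -0.17 in CD26+ cells (difference -2.84, or -1.18 with all spots in the background model), and was high on the same array. CTNNBL1, a nuclear protein that takes part in splicing, was lower by 3.20 and 1.50 and ATF6, which senses misfolded protein in the endoplasmic reticulum, by 1.63 and 2.63 (mean -2.13, or -0.64 with all spots in the background model). The other genes of this set were NRP1, YWHAH, CLDN1, CYP2J and CREM. NRP1, a coreceptor of growth factors, was lower by 1.14 and 1.94, and the adaptor YWHAH by 1.09 and 1.52. The tight junction protein CLDN1 was lower by 1.12 and 1.38. The cytochrome CYP2J was lower by 1.45 and 1.56 (mean -1.50, but 0.21 with all spots in the background model). CREM, a transcription factor of the cAMP response, was lower by 1.07 and 1.17 on its brightest probe. Its 4 probes gave mean differences from -1.32 to -0.31.

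Values close to the 2-fold limit were common. Of the genes at least 2-fold apart in both animals, SLC2A1 and FLT3LG lay nearest to it, with 1.02 as the smaller difference. Just outside were UCP3, lower by 1.13 and 0.99, and ASIP, lower by 2.62 and 0.98. CXCL10 and YBX1, an RNA-binding protein (0.93 in both), lay just outside on the higher side.

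The 9 genes with opposite differences show how far the animals parted. HMMR, a hyaluronan receptor of dividing cells, stood at -1.19 and 3.07 in sheep 30066 (CD26- and CD26+) and at -0.61 and -1.79 in sheep 10081 (mean difference 1.54, or 0.65 with all spots in the background model). TYMS, an enzyme of DNA synthesis, was higher by 2.04 in sheep 30066 and lower by 2.11 in sheep 10081. Higher in sheep 30066 and lower in sheep 10081 were also PGF, a growth factor, PTGS1, a cyclooxygenase, ACSS2, CSNK1E, EIF4G1 and INSR. EGR1, an immediate early gene, was the only one of the 9 to be lower in sheep 30066, by 1.41, and higher in sheep 10081, by 1.32 (mean -0.04, or 0.74 with all spots in the background model). A described probe for an early growth response 1 transcript, A_70_P059661, gave -0.71 and -0.78, with the same direction in both animals, so the probes of this gene disagree.

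Probes of the same gene mostly gave mean differences close to each other, but most differences were themselves small. Over the named genes the median absolute mean difference was 0.25. For 387 genes with at least 2 tested probes the spread between their mean differences had a median of 0.12, and it exceeded 1 for 10 genes. In 234 of them all probes shared a run of at least 30 bases (median spread 0.09), and in 138 none did (0.17). All probes lay in the same direction in both animals for 155 of the 387 genes. In 62 of the 387 the mean differences of the probes included opposite signs. For scale, the brightest probe alone had the same direction in both animals for 56.3% of the 694 named genes. Besides TNF, FAS and CREM, the genes with a spread over 1 included PRNT and YBX1. The near-identical probes of PRNT share 59 bases and gave -0.01 and 1.64. YBX1 had 0.93 and 2.31 on separate probes.

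**Figure D4:**
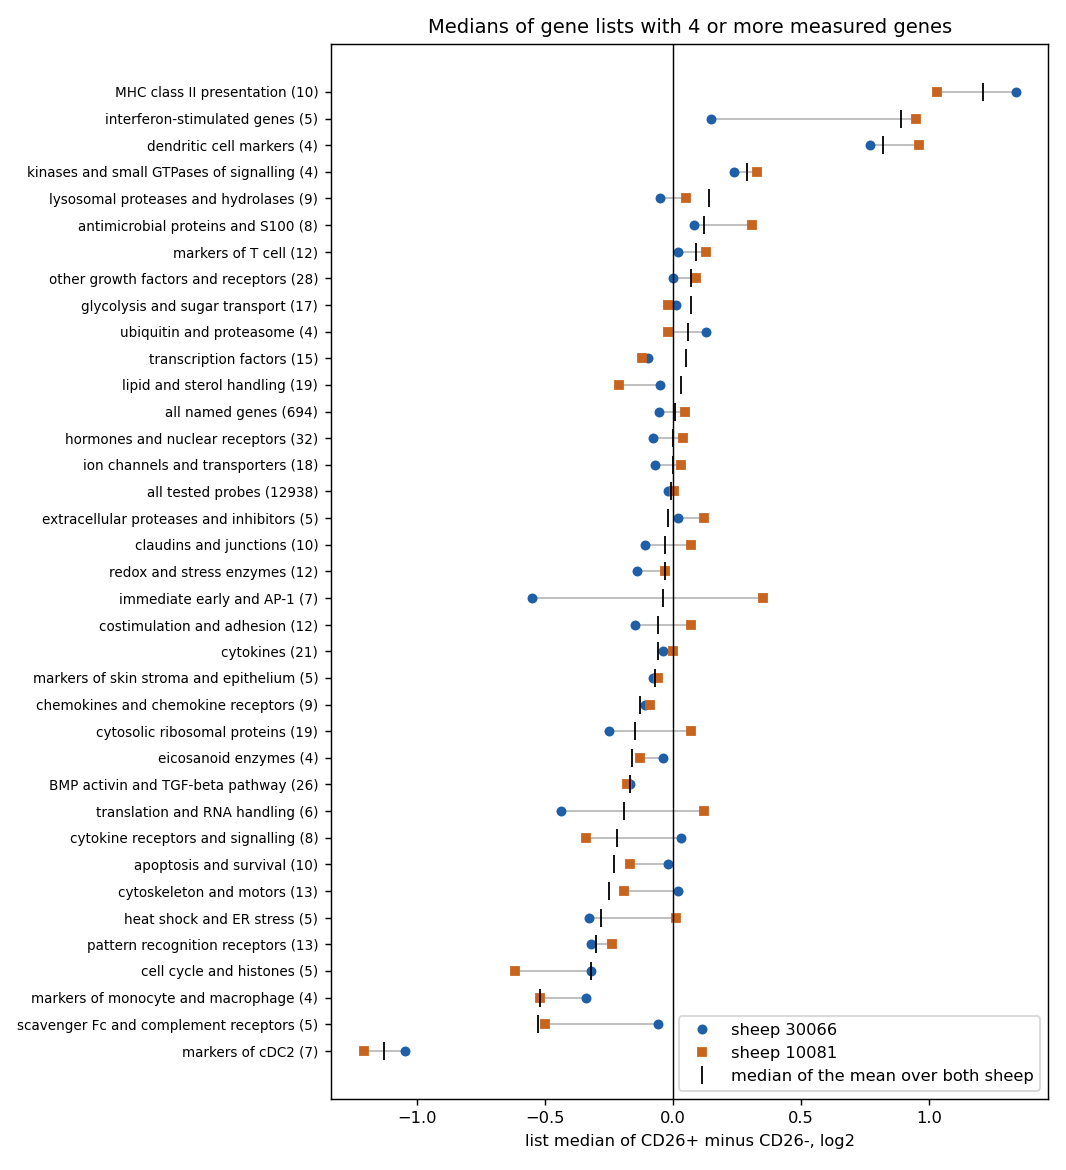
Median difference between CD26+ and CD26- cells (x axis, log2) for each gene list with at least 4 measured genes, by sheep and for the mean of both, with the number of genes in brackets. MHC class II presentation lies at 1.21 and cDC2 markers at -1.13, and most other lists lie near the 0.008 of all named genes.

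Most of the other gene groups lay near 0. For scale, 28.1% of all named genes were higher in both animals and 28.2% lower. For 19 measured ribosomal proteins of the cytosol the median was -0.15, with 5 higher and 6 lower in both animals, and 0 of them 2-fold apart in both. The 28 measured growth factors and receptors outside the BMP family had a median of 0.07, with 9 higher and 4 lower. The 32 measured hormone and nuclear receptor genes had a median near 0, with 6 higher and 8 lower. The 13 pattern recognition receptors lay lower, with a median of -0.30, 4 higher and 6 lower. Of these, 3 were at least 2-fold lower in both animals and 0 at least 2-fold higher, against 3.75% and 2.74% of all named genes. For the 7 immediate early genes the animals differed, with medians of -0.55 in sheep 30066 and 0.35 in sheep 10081.

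Markers of other cells that the sort could hold were present. Their counts stand beside 28.1% of all named genes higher in both animals and 28.2% lower. Of 12 measured T cell markers 8 to 11 were well above background on each array, 5 were higher in CD26+ cells in both animals and 3 lower, and the median was 0.09. Their summed Cy3 signal was 10805 and 18242 units in CD26- cells and 32060 and 30197 units in CD26+ cells, without overlap. CD5 was the largest part of that sum on each array, at 4374 and 10351 units in CD26- cells and at 24418 and 20230 units in CD26+ cells. Without CD5 the sums of the subsets overlapped, so the lack of overlap rested on that gene. Within each animal the CD26+ sum without CD5 was still the higher. The T cell receptor chain CD3D went the other way, at 1.41 and 4.11 in CD26- cells and at 0.10 and 3.18 in CD26+ cells, a difference of -1.12 that turned to 0.26 with all spots in the background model. CD4 was well above background on 1 of the 4 arrays. The part of T cells in the differences given above, that of CD247 included, was not tested. Of 4 tested genes that mark monocytes and macrophages 3 were lower in both animals and 0 higher, with a median of -0.52. Over the 6 such genes on the array the summed Cy3 signal was 32428 and 24250 units in CD26- cells and 43575 and 21612 units in CD26+ cells, which overlap. Their part in the lower values of CD14 and the lectins was not tested either. Of the 2 markers of NK cells on the array, TBX21, a transcription factor, had a difference of 0.14 (SE 0.29). The brightest probe of GNLY, or granulysin, stood at -4.89 and -1.82 in sheep 30066 (CD26- and CD26+). In sheep 10081 it stood at -1.49 in CD26+ cells and had no value on the CD26- array. The 3 probes of GNLY with a difference in both animals gave mean differences from 0.78 to 1.11. They did not all lie in the same direction in both animals. The part of NK cells in the results was not tested.

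Probes for the variable chains of lymphocytes, known from descriptions only, showed where single arrays stood out. Of 33 T cell receptor probes with both differences, 12 were higher in both animals and 4 lower, where 27.6% and 28.6% of all probes were. OTCR12, a beta chain, was higher by 1.27 and 1.23 (mean 1.25, or 0.59 with all spots in the background model). OTCR11, another beta chain, stood at 3.27 and 0.98 in CD26- cells and was not well above background in CD26+ cells, with a measured difference of -2.19, or -0.81 with all spots in the background model. The gamma chain probe A_70_P006896 stood at 4.12 and 0.18 in CD26- cells and at 0.07 and 3.25 in CD26+ cells, so that it was high in a different subset of each animal (mean -0.49, or 0.94 with all spots in the background model). T19, the WC1 receptor of gamma-delta T cells, lay near 0 on 6 probes (median -0.03). The 81 immunoglobulin probes had a median near 0, with 18 higher and 12 lower.

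**Figure D5:**
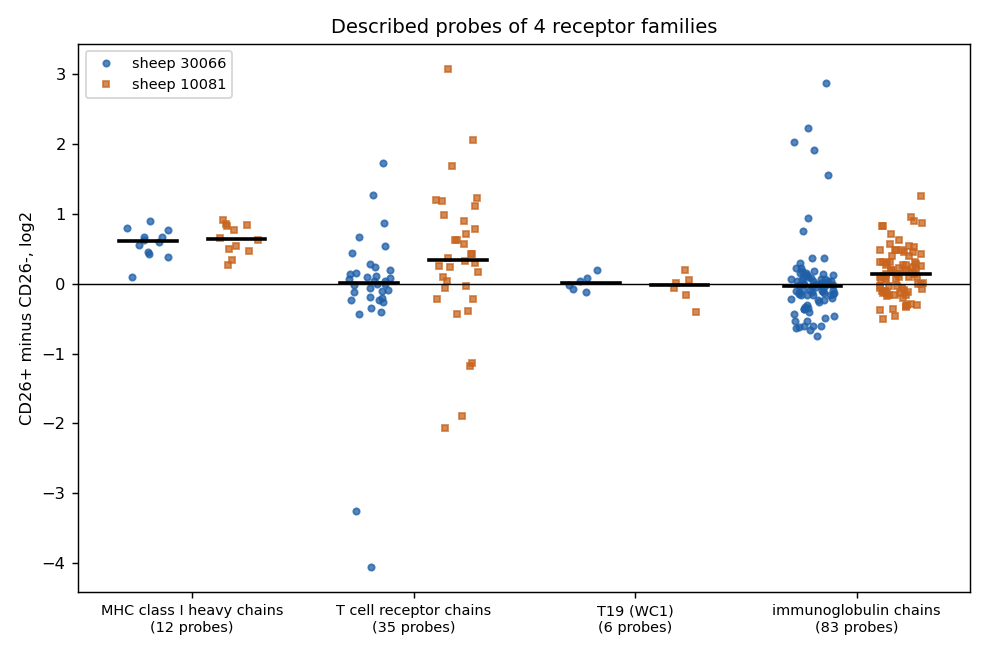
Difference between CD26+ and CD26- cells (y axis, log2) for each described probe of 4 families, by sheep, with the median as a black bar. All 12 MHC class I probes lie above 0 in both animals, T19 probes lie near 0, and T cell receptor and immunoglobulin probes scatter to both sides.

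Among the other described transcripts, a serine protease 23 precursor (A_70_P051631) was higher by 3.85 in sheep 30066 and by 0.69 in sheep 10081. A glutathione transferase M3 (A_70_P016556) was lower by 3.21 and 0.85, and fatty acid binding protein 5 (A_70_P036081) by 0.92 and 1.23. An elongation factor 1 alpha transcript (A_70_P024461) was lower by 1.26 and 0.77, next to the named gene EEF1A1, which was lower by 1.03 and 0.72.

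Most of the distinct probes, like most of all tested probes, are expressed sequence tags without a gene name here. Of 12938 probes with both differences 11611 were tags. Of these tags 284 were at least 2-fold higher, 342 at least 2-fold lower and 252 opposite. Those shares were close to the 2.42%, 2.98% and 2.06% of all probes. The largest single difference of the comparison lay among them: the tag A_70_P046391 stood at -3.69 and -3.93 in CD26- cells and at 2.51 and 1.08 in CD26+ cells, a mean difference of 5.60. On the other side, A_70_P058761 stood at 2.07 and 2.72 in CD26- cells and at -2.63 and -1.97 in CD26+ cells, a difference of -4.70. Next on that side was A_70_P020006, lower by 3.81 and 3.98. At least 8-fold apart in both animals were 3 tags on the higher side and 7 on the lower side.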

How the data were processed

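RNA of 4 samples of sorted cells and of 1 reference self-hybridisation was amplified, labelled and hybridised to 2-colour arrays, per the labels' protocols. The array files as deposited give an intensity for every spot, unscaled, and its local background. They also give a log10 ratio of red over green processed signals, per the file headers. The authors' value table, in log2, equals that ratio turned to Cy3 over Cy5 (largest gap 5e-10).

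Mean signals were corrected by normexp (offset 50), normalised by loess within each array and averaged over spots of a probe (limma 3.58.1, R 4.3.3). The 536 control spots, flagged spots and 0 to 8 spots per array with local background over 5 times the array median were left out. That last choice was made after results had been seen, and the fit on all spots is an alternative. Kept were the 13252 probes that exceeded background clearly in Cy3 on 2 or more of the 5 arrays, and 1756 dimmer ones were left out. A probe dim in one subset and bright in the other can pass, so counts are of probes that passed. 314 probes had a difference in 1 sheep only and took part in no count. limma's lmFit and eBayes were fitted to the 4 subset arrays with sheep as a block, with Benjamini-Hochberg adjustment. Both subsets of a sheep come from the same animal, and the deviations of its arrays correlated with r = 0.332. The sheep lay in different rows of 1 slide, so animal and row cannot be told apart. The fit was tested on simulated data.

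Probes were named from the files and a sheep RefSeq table (assembly ARS-UI_Ramb_v3.0, names only): 1459 probes of 825 genes, of which 223 probes of 126 genes through old names read by hand. A gene is represented by its brightest probe. The text names the genes at least 2-fold apart in both sheep, at most 25 a side, those opposite, members of the gene lists and genes whose probes disagree. CREM, the one gene past that limit, was added after its values were seen. The gene lists, and the part of the data described, were chosen with earlier results of these data known. One gene counted among the named genes is not reported here. Arrays limit the precision by their number.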

Additional observations from a re-analysis of the deposited data

How the results depend on the processing

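The count of probes called by limma was 0 with the sheep as a block and under each of the 12 alternatives fitted. Without the replicate block, which pairs the arrays of an animal, it was also 0, with 746 probes at an unadjusted p under 0.05 in place of 1105. Fitting the background model on all spots gave 237 probes lower in both sheep in place of 386, 108 in opposite directions in place of 267, and a share of 61.7% higher in place of 44.8%. Median centring gave a share of 34.5%. The other settings that kept both sheep, namely no background subtraction, the scanner's processed signals, scaling between arrays and either change of the filter, left these counts within 1.5 times and the share within 10 points. In a single sheep the counts are larger by construction, 1134 to 1556 higher and 1215 to 1821 lower. The number of genes whose probes all lay in the same direction was 129 to 197 in these settings, against 155.

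Of the 45 named genes at least 2-fold apart in both sheep, 42 kept their direction in every setting tried. CYP2J went to 0.21 when all spots entered the background model. In fits without pairing that leave out 1 array, DQA1 was -0.36 when the CD26+ array of sheep 30066 was left out. CREM was 0.41 when the CD26- array of sheep 30066 was left out and 0.46 when it was the CD26+ array of sheep 10081. These fits compare subsets of unequal animals. Fitting on all spots moved the unlogged fold of 13 of the 45 by more than 1.5 times, and the scanner's processed signals moved 0. Leaving out single arrays gives no count of probes apart in both sheep. Signals near background limit the dimmest part of the probes, where the animals correlated least.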
